A study of Mus musculus with 19 samples.

Results

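The mRNA levels of 10 genes of glycolysis were followed in blood leukocytes of DBA/2 and B6 mice after CAWS administration. The genes are the glucose transporters Slc2a1 and Slc2a3, the hexokinases Hk2 and Hk3, phosphofructokinase Pfkl, and then Gapdh, Pgk1, Eno1, Pkm2 and Ldha. They were taken as named in the array annotation (Pkm2 is Pkm in current nomenclature), and their choice did not use a measured value. Gapdh is included because the qRT-PCR of the study was normalized to it. The 10 genes have 16 of the 41174 probes on the array, 14 of which gave enough signal to be tested.

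CAWS is a water-soluble mannoprotein and beta-glucan extract of Candida albicans that causes vasculitis of the coronary arteries and aortic root in mice. Male mice, 5 to 14 weeks of age, of the inbred strains DBA/2 and B6 received 1 mg of CAWS intraperitoneally on each of 5 days, and 0 w is the time right after the last injection, so that the 0 w mice had also received CAWS. No sample of an untreated mouse was analysed. RNA was isolated from leukocytes of whole blood and hybridized to single-color arrays, with 2 RNA samples per group for DBA/2 mice (0, 2, 4, 8 and 9 w) and for B6 mice at 0, 4 and 8 w, whereas the B6 groups at 2 and 9 w had 1 sample each. The mice at later weeks were survivors. The labels call the samples of a group biological replicates, and the methods describe RNA of individual mice. The p values rest on the spread between the 2 samples of a group, pooled over the groups. Replicate number matched scan session, so that this spread also holds any difference between the sessions. A group with 1 sample was assumed to vary like the others.

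Glycolysis turns glucose into pyruvate in the cytosol. Glucose enters through facilitative transporters, hexokinase traps it as glucose 6-phosphate, phosphofructokinase commits it to the pathway, and the enzymes from Gapdh to pyruvate kinase recover ATP and NADH. Lactate dehydrogenase then regenerates NAD by reducing pyruvate to lactate. Neutrophils depend strongly on this pathway, and macrophages raise it on activation, in part through the transcription factor HIF-1, which binds a short core sequence in the promoters of many of these genes.

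Because many of the genes are textbook HIF-1 targets and several of them rose together here, their promoters were searched for that core (ACGTG or GCGTG, on both strands) in the 250 bases before each start site in RefSeq (GRCm38.p6). Of the 10 genes, 9 had an entry (none was found for Slc2a3). Of their 13 entries, 12 held at least 1 match, against 38.6% of 32851 such regions of the genome. Entries of a gene can overlap, and 2 entries of Eno1 share most of their bases and the same 2 matches. The difference from the other regions was not tested. The promoters below are those of Gapdh, the reference gene, of Hk2, whose change differed between the strains, and of Pgk1, which codes for the enzyme after Gapdh. Capitals mark the matches. The Gapdh region is chr6:125165774-125166023, that of Hk2 is chr6:82774455-82774704, both on the minus strand, and that of Pgk1 is chrX:106186850-106187099 on the plus strand.
Gapdh: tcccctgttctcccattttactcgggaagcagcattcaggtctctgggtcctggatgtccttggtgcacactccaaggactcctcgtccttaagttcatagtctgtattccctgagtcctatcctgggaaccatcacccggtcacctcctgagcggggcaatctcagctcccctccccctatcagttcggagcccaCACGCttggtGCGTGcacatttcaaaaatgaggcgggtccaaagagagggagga
Hk2: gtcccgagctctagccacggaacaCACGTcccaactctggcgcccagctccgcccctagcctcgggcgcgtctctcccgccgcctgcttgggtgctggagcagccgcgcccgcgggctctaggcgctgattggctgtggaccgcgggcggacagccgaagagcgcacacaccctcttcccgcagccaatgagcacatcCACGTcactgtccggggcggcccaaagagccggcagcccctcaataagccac
Pgk1: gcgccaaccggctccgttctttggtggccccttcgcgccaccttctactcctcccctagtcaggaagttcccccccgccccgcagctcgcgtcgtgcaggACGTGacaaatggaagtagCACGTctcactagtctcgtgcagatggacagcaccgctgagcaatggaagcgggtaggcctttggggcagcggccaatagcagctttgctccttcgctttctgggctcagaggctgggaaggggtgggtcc
Each of the 3 regions held 2 matches, which began 54 and 44 bases before the start in Gapdh, 226 and 52 bases before it in Hk2, and 150 and 131 bases before it in Pgk1. The E-box CACGTG, which overlaps the HIF core, was in 6.02% of the regions and among the members only in 1 of the 2 entries of Ldha, with 2 matches. A match is a run of letters, and no binding was measured.

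Before the results, 2 properties of the samples need to be given. The values are log2 signals relative to the 75th percentile of each array, taken over the 11536 probes that exceeded background clearly on each of the 19 arrays, so that a level of 0 equals that percentile. Probes bind unlike, and the level of one gene is not compared with that of another. The summed level of 15 hepatocyte markers, in multiples of the 75th percentile, was 55.0 to 56.3 in the 2 B6 0 w samples and 36.0 to 37.2 in the 2 B6 8 w samples, and 1.06 to 2.62 in the other 14. All 15 markers were well above background at B6 0 w and 13 to 15 at B6 8 w, against 4 to 7 elsewhere. Every B6 change from 0 w given here rests on these B6 0 w samples and cannot be computed without them. The log2 changes in DBA/2 mice do not use them. Their SE, adjusted p and calls do, since the spread of a probe is taken over all groups. Calls of Pgk1 in DBA/2 mice were among those lost without a B6 0 w sample.

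Levels of blood cell markers also moved between the groups. Of 13 neutrophil markers, 12 were summed (Elane was well above background in 0 samples). Their summed level was 107 to 108 at 0 w and 707 to 787 at 8 w in DBA/2 mice. In B6 mice it was 57.5 to 57.7 at 0 w and 432 to 434 at 8 w. This sum was higher at every later week than at 0 w in both strains. The summed level of 7 platelet markers was 130 in the B6 2 w sample against 346 to 358 at B6 0 w, and all 7 were lower there. Of 10 monocyte or macrophage markers, 9 were higher than at 0 w in DBA/2 mice at each of 4, 8 and 9 w. In B6 mice at 4 w 1 was higher and 6 were lower. Their summed level did not fall there, at 132.4 to 142.8 at B6 0 w and 143.0 to 150.5 at B6 4 w. In DBA/2 mice it was 96.4 to 102.1 at 0 w and 183.2 to 193.8 at 4 w. The change of all 10 was greater in DBA/2 mice at 4 w (median strain difference 1.77). Of 7 NK cell markers, 6 differed in the same direction (median 1.40). T cell markers fell in DBA/2 mice, with 7 of 10 lower at 8 w and 7 at 9 w, as did B cell markers, with 5 and 6 of 8. In RNA from mixed leukocytes, fewer cells of a type and less RNA per cell cannot be told apart. The part of these cell types in the results below was not tested.

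**Figure D1:**
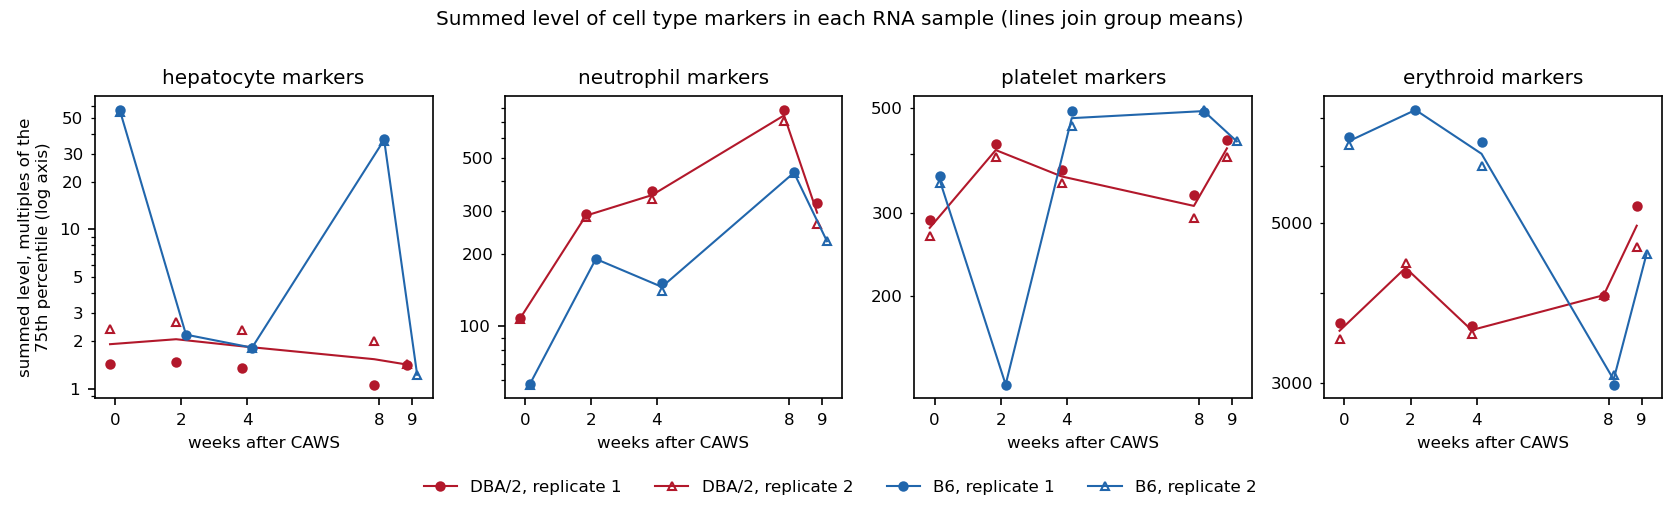
Summed level of hepatocyte, neutrophil, platelet and erythroid markers in each RNA sample, in multiples of the 75th percentile of the array on a log axis, against weeks after CAWS administration. Hepatocyte markers stood at 36.0 to 56.3 in B6 mice at 0 w and 8 w and at 1.06 to 2.62 in all other samples, neutrophil markers were lowest at 0 w in both strains, and platelet markers were lowest in the B6 2 w sample (130).

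Of the 10 genes, 7 rose in DBA/2 mice (4 and 8 w averaged, relative to 0 w) and 5 rose in B6 mice, and none fell. The genes that rose in both strains were Slc2a1, Slc2a3, Gapdh, Pgk1 and Pkm2, and Hk2 and Hk3 passed the threshold in DBA/2 mice. The median log2 change of the 10 genes was 0.55 in DBA/2 mice and 0.47 in B6 mice, and the medians over all probes tested were −0.14 and −0.08. Over all 22936 to 22939 probes tested, 9.80% were called higher and 13.1% lower in DBA/2 mice, and 7.28% higher and 7.72% lower in B6 mice (limma, Benjamini-Hochberg adjusted p under 0.05). Of the calls, 42.9% were higher in DBA/2 mice and 48.5% in B6 mice, and over the other scalings and background corrections these shares ran from 5.78% (relative to Gapdh) to 79.5% (normexp) and from 4.81% (relative to Gapdh) to 96.5% (value table without scaling). With normexp background correction of the raw signal in place of the processed signal, 2 of the 10 genes were called in DBA/2 mice (Pgk1 and Pkm2) and 0 in B6 mice. The calls over all probes also became fewer with normexp, at 586 in DBA/2 mice (5246 before) and 179 in B6 mice (3443 before).

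By week, 3, 5, 6 and 6 genes were called higher in DBA/2 mice (2, 4, 8 and 9 w). The shares of all probes called higher at these weeks were 7.90%, 7.58%, 10.02% and 13.4%. In B6 mice, 0 genes were higher and 3 (Slc2a3, Gapdh and Pkm2) were lower at 2 w, where 5.29% of all probes were called higher and 7.74% lower. Then 2, 7 and 2 genes were higher (4, 8 and 9 w), against 6.02%, 11.0% and 5.48% of all probes. These comparisons share the 0 w samples of a strain. The DBA/2 9 w arrays were on other slides than the DBA/2 0 w arrays, so that week and slide cannot be told apart there. With normexp the genes called higher were 0, 0, 1 and 3 in DBA/2 mice (2, 4, 8 and 9 w) and 0, 3 and 0 in B6 mice (4, 8 and 9 w), and 2 (Slc2a3 and Pkm2) were lower at B6 2 w. Shares of all probes are not given for these normexp counts.

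**Figure D2:**
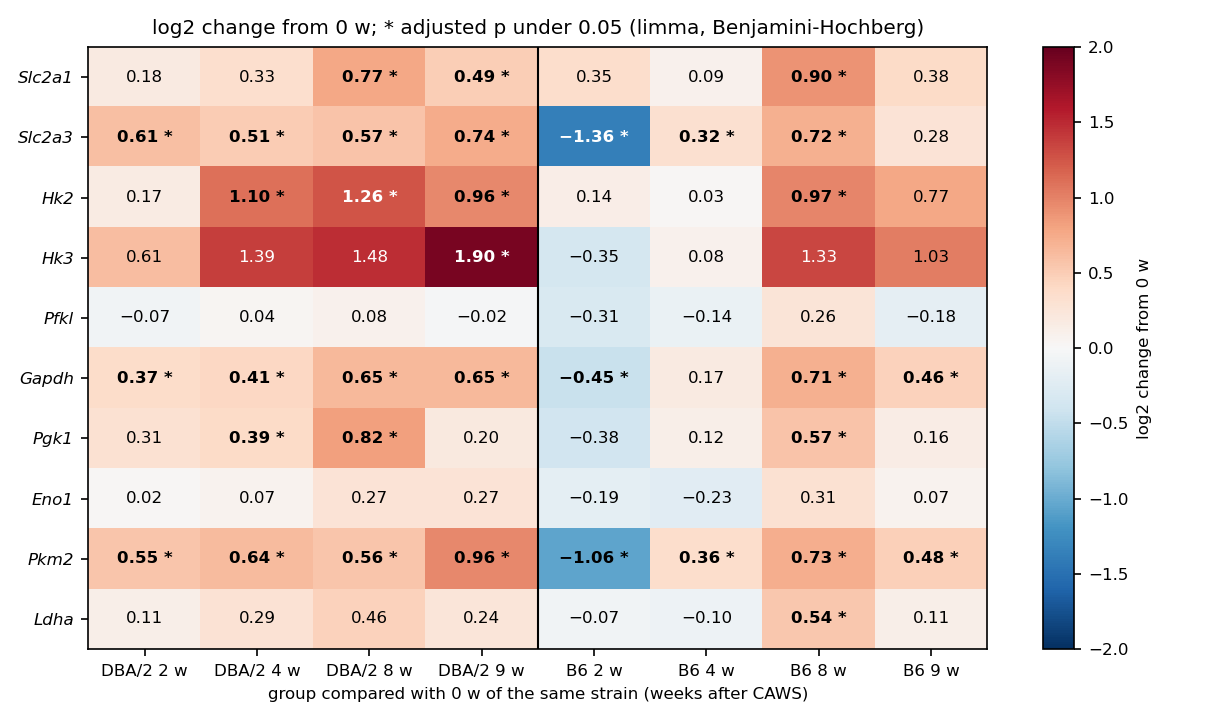
Log2 change of the 10 genes from 0 w of the same strain at each later week; color and number give the change, and an asterisk with bold type marks an adjusted p under 0.05 (limma). Red dominates in DBA/2 mice from 4 w and in B6 mice at 8 w, and the B6 2 w column holds the only genes called lower, Slc2a3 (−1.36), Gapdh (−0.45) and Pkm2 (−1.06).

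Slc2a3 codes for GLUT3, a high-affinity glucose transporter of leukocytes and platelets. Its level in DBA/2 mice was 1.65 and 1.64 at 0 w, 2.23 and 2.28 at 2 w, 2.19 and 2.13 at 4 w, 2.27 and 2.18 at 8 w and 2.45 and 2.33 at 9 w (replicates 1 and 2). All later DBA/2 samples lay above both 0 w samples, with changes of 0.61, 0.51, 0.57 and 0.74 in the order of the weeks (SE 0.08, adjusted p 0.0012, 0.00264, 0.000727 and 0.000175). The rise was thus present by 2 w and varied little afterwards, at 1.43 to 1.67-fold.

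In B6 mice the level of Slc2a3 was 2.01 and 1.94 at 0 w, 0.61 in the 2 w sample, 2.34 and 2.25 at 4 w, 2.74 and 2.64 at 8 w and 2.26 in the 9 w sample. The 2 w sample stood apart from all others, at 2.57-fold below 0 w (log2 change −1.36, SE 0.10, adjusted p 2.36e-05). It is also the sample with the low platelet markers, whose 7 genes fell there by a median of 1.48 on the log2 scale. At 4 w (0.32, adjusted p 0.0263) and 8 w (0.72, adjusted p 0.000226) the gene was higher than at 0 w, the former not without any 1 of the 0 w or 4 w samples (0.27 to 0.36), and at 9 w the change was 0.28 with an adjusted p of 0.121 (0.31 and 0.034 with the scan session as a block). Of the other 2 probes named for Slc2a3, one was well above background in 1 of 18 samples and lies on chromosome 17 in the array annotation (mm8), whereas the measured probe lies on chromosome 6 (122693676 to 122693735), and the other was well above background in 0 samples.

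Slc2a1 codes for GLUT1, a glucose transporter of activated leukocytes. Its level in DBA/2 mice was −0.96 and −1.04 at 0 w, −0.76 and −0.87 at 2 w, −0.70 and −0.64 at 4 w, −0.12 and −0.35 at 8 w and −0.53 and −0.50 at 9 w. All later samples lay above 0 w, and the gene was called at 8 w (1.71-fold, log2 change 0.77, SE 0.12, adjusted p 0.00154) and, to a lesser degree, at 9 w (1.40-fold, adjusted p 0.0153). The 9 w call was lost without replicate 2 of DBA/2 0 w (0.45) or of DBA/2 9 w (0.48). In B6 mice it was −1.32 and −1.35 at 0 w, −0.99 at 2 w, −1.16 and −1.33 at 4 w, −0.28 and −0.60 at 8 w and −0.96 at 9 w. Here the 8 w change was 0.90 (SE 0.12, adjusted p 0.000726), and no other week passed. With the scan session as a block the DBA/2 4 w change passed too (0.33, adjusted p 0.046). Relative to Gapdh, the DBA/2 9 w change of Slc2a1 was −0.16 with an adjusted p of 0.378.

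Hk2 codes for the inducible hexokinase that binds mitochondria. In DBA/2 mice its level was −2.40 and −2.84 at 0 w, −2.42 and −2.48 at 2 w, −1.47 and −1.57 at 4 w, −1.22 and −1.50 at 8 w and −1.53 and −1.80 at 9 w. The 2 w samples overlapped those at 0 w, and all samples from 4 w on lay above them. From 4 w on the changes were 1.10, 1.26 and 0.96 (SE 0.17, adjusted p 0.00291, 0.000705 and 0.00307), or 2.14, 2.40 and 1.95-fold. Within replicate 1 these changes were 0.93, 1.18 and 0.87, and within replicate 2 they were 1.27, 1.34 and 1.05.

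In B6 mice the level of Hk2 was −2.87 and −3.18 at 0 w, −2.89 at 2 w, −2.89 and −3.10 at 4 w, −2.0 and −2.11 at 8 w and −2.25 at 9 w. The 4 w samples lay between those at 0 w (change 0.03, SE 0.17), and the 8 w samples were 1.96-fold higher (0.97, SE 0.17, adjusted p 0.00368). The change at 9 w was 0.77 with an adjusted p of 0.0549. By its main probe, Hk2 was the only member called for a difference between the strains in its change from 0 w: at 4 w the DBA/2 change exceeded the B6 change by 1.07 on the log2 scale (SE 0.25, adjusted p 0.0213). This call was lost without replicate 1 of B6 0 w (0.92), replicate 2 of B6 4 w (0.97), replicate 2 of DBA/2 0 w (0.85) or either DBA/2 4 w sample (1.02 and 1.12), and with normexp (0.68). At 8 w the difference was 0.29 (SE 0.25, adjusted p 0.504), and averaged over both weeks it was 0.68 (SE 0.21, adjusted p 0.069). With the scan session, which matched the replicate number, as a block, the averaged difference passed (0.68, SE 0.12, adjusted p 0.00573), and so did the B6 9 w change (0.88, adjusted p 0.00232). Monocyte and NK cell markers moved in the same direction at 4 w, and their part in the Hk2 difference was not tested.

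Over all probes, 7.38% differed between the strains in the direction of DBA/2 mice at 4 w and 4.47% in that of B6 mice, so that 1 of 10 genes is near the background. At 8 w, where 7.19% and 10.3% of all probes differed in these directions, 0 of the 10 genes did, by adjusted or by unadjusted p under 0.05. Over the mean of both weeks 13.2% of all probes differed in either direction, and 0 of the 10 genes did, with 1 at an unadjusted p under 0.05 and 1 (Hk2) with the scan session as a block. Every strain difference includes the B6 0 w samples with the hepatocyte markers.

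Hk3 codes for the hexokinase of myeloid cells. Its level in DBA/2 mice was −3.46 and −3.50 at 0 w, −2.86 and −2.87 at 2 w, −2.04 and −2.14 at 4 w, −2.06 and −1.94 at 8 w and −2.67 and −0.48 at 9 w. The samples of a week lay close together up to 8 w, and the 2 samples at 9 w differed by more than all other DBA/2 samples of this gene. The SE was 0.52, and the changes of 1.39 and 1.48 at the middle weeks (4 and 8 w, adjusted p 0.118 and 0.0715) did not pass, whereas the change of 1.90 at 9 w did (adjusted p 0.024). Within replicate 1 the 9 w change was 0.79 and within replicate 2 it was 3.02, and the call was lost without either 0 w sample (1.93 and 1.88). In B6 mice Hk3 was −3.11 and −2.71 at 0 w, −3.26 at 2 w, −2.81 and −2.85 at 4 w, −1.75 and −1.41 at 8 w and −1.88 at 9 w, with a change of 1.33 at 8 w that did not pass (adjusted p 0.109). The 2 DBA/2 9 w samples decided the calls of Hk3 at other times. Without either of them the changes at DBA/2 4 w, DBA/2 8 w and B6 8 w passed (adjusted p 0.000537, 0.000204 and 0.000421). So did the strain difference at 4 w, which was 1.31 (adjusted p 0.331 with all samples and 0.00484 without either). Its processed signal was 25.6 to 271 over the 19 arrays, which makes it one of the dimmer probes of the set.

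Pfkl, the liver-type phosphofructokinase, is the commitment step. Its level ranged over 0.65 on the log2 scale across all 18 samples, from −3.73 (B6 2 w) to −3.08 (B6 8 w, replicate 2), and its SD of 0.15 was the lowest of the 10 genes. None of its 8 changes from 0 w passed the test, and they ran from −0.31 at B6 2 w to 0.26 at B6 8 w (SE 0.13 and 0.10). From 4 w on the DBA/2 samples overlapped those of 0 w. Its processed signal, 18.4 to 63.6, was low.

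**Figure D3:**
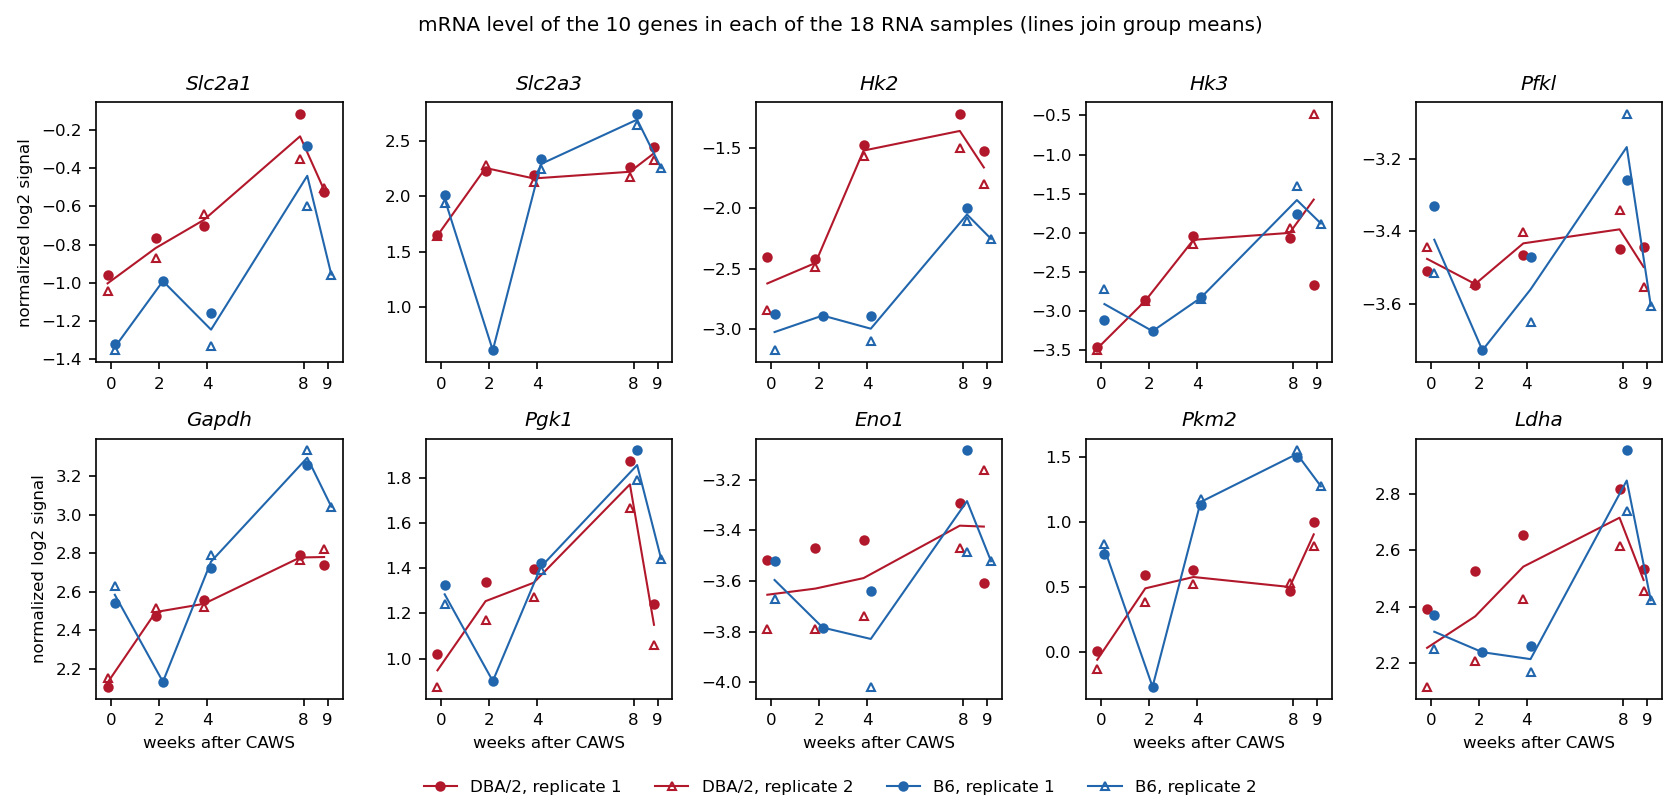
Level of each of the 10 genes (log2 signal relative to the 75th percentile of the array) in the 18 RNA samples against weeks after CAWS administration, with filled circles for replicate 1, open triangles for replicate 2 and lines through the group means; each panel has its own axis. Hk2 at 4 w was higher in DBA/2 mice (−1.47 and −1.57) than in B6 mice (−2.89 and −3.10), and the B6 2 w sample was the lowest of all for Slc2a3, Pkm2 and Pfkl.

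Gapdh codes for glyceraldehyde 3-phosphate dehydrogenase, which makes the NADH that lactate dehydrogenase later consumes. Its probe lies on chromosome 6 (125128116 to 125128174, mm8). The DBA/2 level was 2.11 and 2.15 at 0 w, 2.47 and 2.52 at 2 w, 2.56 and 2.52 at 4 w, 2.79 and 2.77 at 8 w and 2.74 and 2.82 at 9 w. All 8 later DBA/2 samples lay above both 0 w samples. Changes from 0 w were 0.37, 0.41, 0.65 and 0.65 week by week (SE 0.07, adjusted p 0.00894, 0.00521, 0.000197 and 0.000215), which is 1.29 to 1.57-fold.

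In B6 mice the Gapdh level was 2.54 and 2.63 at 0 w, 2.13 in the 2 w sample, 2.72 and 2.79 at 4 w, 3.26 and 3.34 at 8 w and 3.04 in the 9 w sample. The gene was lower than 0 w at 2 w (−0.45, SE 0.09, adjusted p 0.00861), higher at 8 w (0.71, SE 0.07, adjusted p 0.000136, 1.64-fold) and at 9 w (0.46, SE 0.09, adjusted p 0.0117), and at 4 w the change was 0.17 (adjusted p 0.156). Calls of Gapdh were lost at B6 2 w without replicate 2 of B6 0 w (−0.41), at B6 9 w without replicate 1 of B6 0 w (0.41), and at DBA/2 2 w without replicate 1 of DBA/2 0 w or replicate 2 of DBA/2 2 w (0.35 each). It was called in 7 of the 8 comparisons of a week with 0 w, and with normexp in 1 of them (B6 8 w, 0.86, adjusted p 0.0427). Among the B6 samples without the hepatocyte markers, the level ranged from 2.13 at 2 w to 3.04 at 9 w, each a single sample. The former is the sample with the low platelet markers. The part of either marker set in the Gapdh level was not tested. Over all 18 samples the highest was 2.34-fold above the lowest, and the processed signal ran from 1070 to 5415, on no array saturated.

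The level of Gapdh was also lower in DBA/2 than in B6 mice, with differences of −0.46, −0.22 and −0.52 at 0, 4 and 8 w (adjusted p 0.00113, 0.0447 and 0.000678, and 1.37 and 1.43-fold for the first and the last), although without any 1 of 14 samples the 4 w difference (−0.25 to −0.19) missed the threshold, the 4 w difference was 0.09 in the opposite direction after quantile normalization and the 0 w and 4 w differences turned to 0.37 and 0.58 in the value table without scaling. Of the 10 genes, 4 differed in level between the strains at each of these times, against 32.7%, 32.1% and 25.4% of all probes. The DBA/2 and B6 arrays of these times were on different slides, so that strain and slide cannot be told apart. Pkm2 was lower in DBA/2 mice at all 3 times (−0.85, −0.58 and −1.02), with the 4 w difference turned to 0.23 (adjusted p 0.109) in the value table without scaling, and Hk2 was higher at 4 w (1.47, 2.78-fold) and 8 w (0.69, 1.62-fold). The 8 w call of Hk2 was lost without replicate 2 of B6 8 w (0.64) or replicate 1 of DBA/2 8 w (0.55).

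Set beside 20 other commonly used reference genes, Gapdh took rank 12 of 21 by the SD over the 18 samples (0.34, lowest first). Eef1a1 (0.13), Ppia (0.15) and Ppib (0.15) varied least, and Tfrc (1.24), Ipo8 (0.72) and Actb (0.45) most. Gapdh was called in 7 of the 8 comparisons with 0 w, exceeded by B2m with 8. Eef1a1 and Ppia were called in 0 of them, but so were Eif4a2, Polr2a, Tbp, Actb and Ipo8. The number of calls thus did not follow the SD. Pgk1, also in use as a reference, had an SD of 0.31 and was called in 3. Of the 11536 probes used for scaling, 58.7% had a lower SD than Gapdh, whose 0.34 was close to their median of 0.31.

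**Figure D4:**
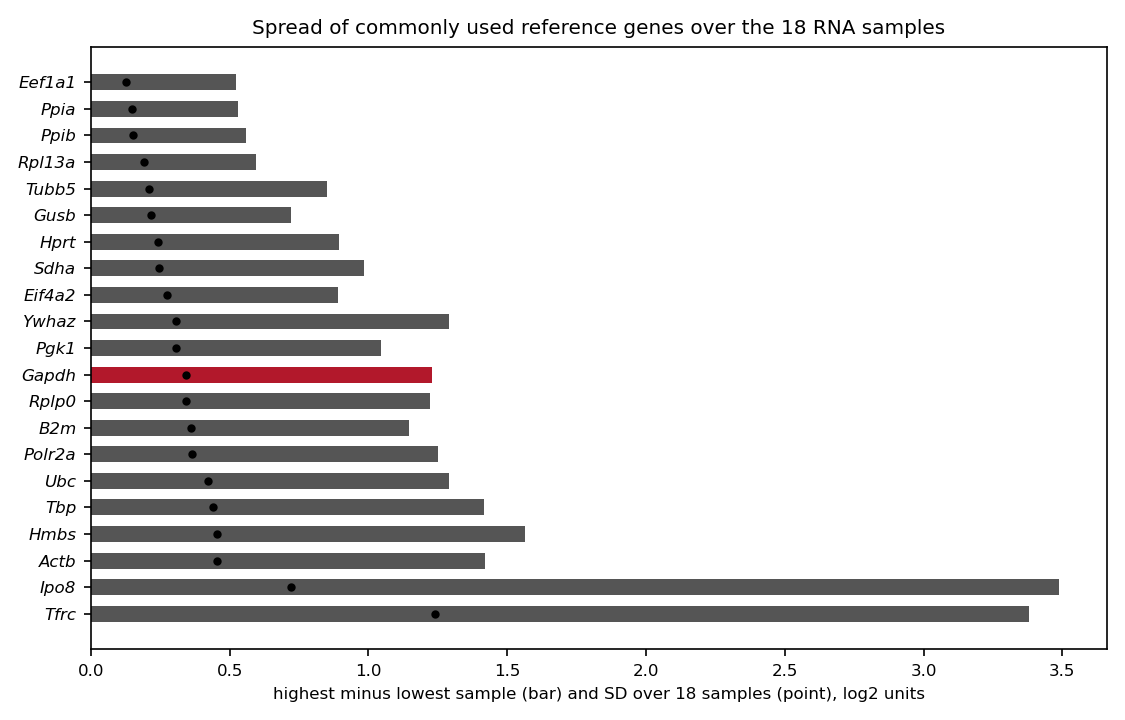
Highest minus lowest sample (bars) and SD over the 18 RNA samples (points), in log2 units, for 21 reference genes ordered by SD, with Gapdh in red. Gapdh, with a range of 1.23 and an SD of 0.34, stood at rank 12, between Pgk1 and Rplp0.

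Likeness to Gapdh was measured by Pearson correlation over the 18 samples, among 9066 candidate genes. The first 5 were NAP062176-1 (0.987), ENSMUST00000080763 (0.984), ENSMUST00000077834 (0.982), 3000002C10Rik (0.981) and LOC435752 (0.974), and the last 3 of these are annotated as similar to Gapdh. The points share libraries and the scaling, and signal from Gapdh and from a near-identical copy cannot be told apart. Mif, a cytokine gene, stood at rank 11 (0.962) and was singled out after its values were seen. Of all 13 probes annotated as Gapdh-like, the 3 just named included, 10 were tested. In DBA/2 mice 6, 6, 8 and 9 of these were called higher week by week, and in B6 mice 5 were lower at 2 w and 9 and 5 were higher at 8 and 9 w.

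Levels were also taken relative to Gapdh, as in a qRT-PCR normalized to it. Relative to Gapdh the median probe shifted by −0.83 in DBA/2 mice at 8 w and by 0.53 in B6 mice at 2 w, where with the 75th percentile it was −0.18 and 0.08. Of the probes called at B6 2 w, 87.6% were then higher, against 40.6% before, and at DBA/2 8 w 5.09% were higher, against 41.8%. Among the other 9 genes, relative to Gapdh, Hk2 was the only gene still higher and Pfkl the only one lower for 4 and 8 w averaged in DBA/2 mice, and in B6 mice 0 genes were higher and Pfkl was lower. At DBA/2 8 w Hk2 was 0.61 above Gapdh (1.26 before) and Pfkl 0.57 below it, while Pkm2 (−0.09) and Slc2a3 (−0.08) were level with it. In the B6 2 w sample Slc2a3 (−0.91) and Pkm2 (−0.61) stayed lower than at 0 w relative to Gapdh, and Slc2a1 was higher (0.80).

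**Figure D5:**
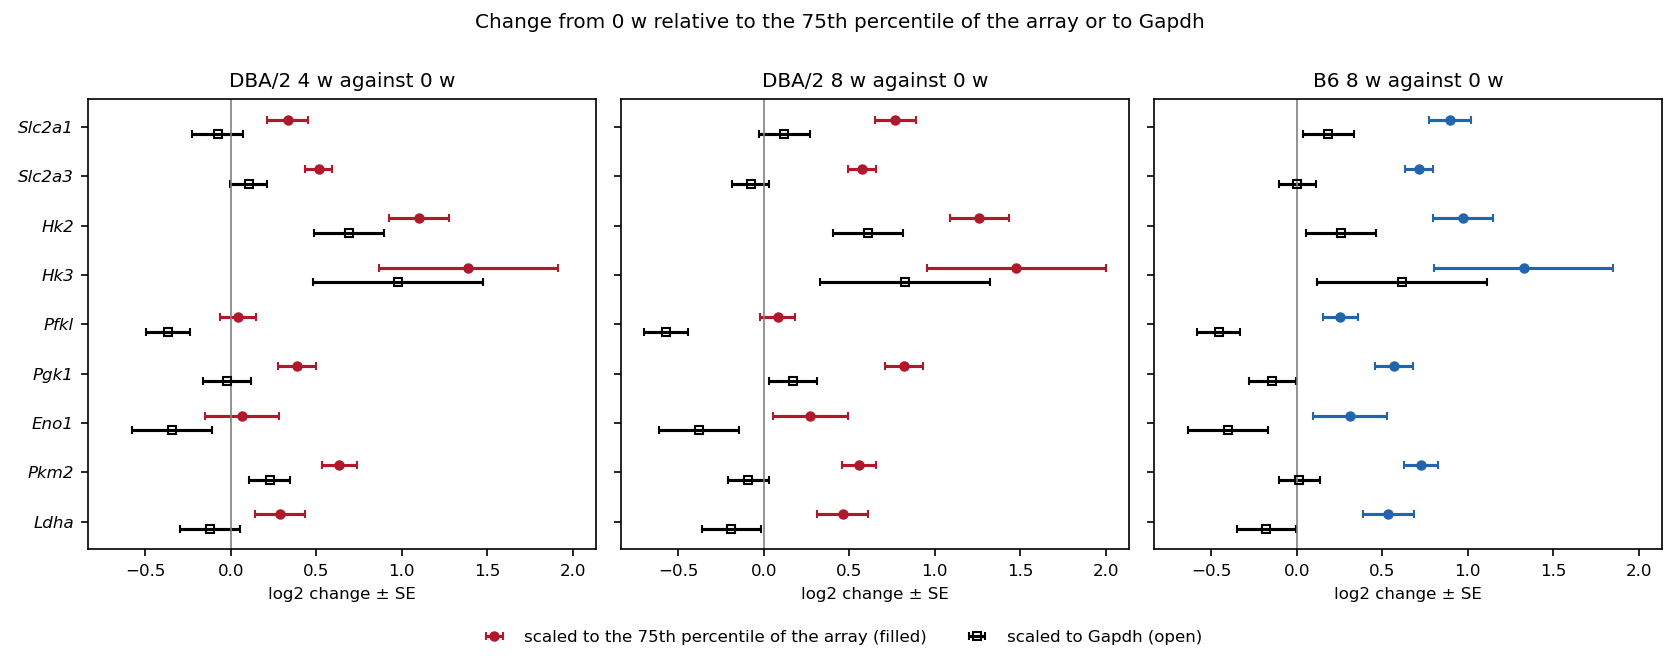
Log2 change ± SE of the other 9 genes from 0 w for 3 groups (DBA/2 4 w, DBA/2 8 w and B6 8 w), scaled to the 75th percentile of the array (filled) or to Gapdh (open). Scaling to Gapdh moves every gene to the left by 0.41 to 0.71, and Hk2 in DBA/2 mice (0.69 at 4 w and 0.61 at 8 w) stays above 0.

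Pgk1 codes for phosphoglycerate kinase, the first step that yields ATP. Its DBA/2 level was 1.02 and 0.88 at 0 w, 1.34 and 1.17 at 2 w, 1.40 and 1.27 at 4 w, 1.87 and 1.67 at 8 w and 1.24 and 1.06 at 9 w. It was highest at 8 w (1.77-fold above 0 w, log2 change 0.82, SE 0.11, adjusted p 0.000636) and then lower again, with a change of 0.20 at 9 w (adjusted p 0.222). The 4 w change of 0.39 passed narrowly (adjusted p 0.0469), did not pass without any 1 of 12 samples (0.31 to 0.46), and was −0.02 relative to Gapdh. In B6 mice the level was 1.33 and 1.24 at 0 w, 0.90 at 2 w, 1.42 and 1.39 at 4 w, 1.92 and 1.79 at 8 w and 1.44 at 9 w, and only the 8 w change passed (0.57, SE 0.11, adjusted p 0.00583; −0.14 relative to Gapdh). With the scan session as a block, the first probe also passed at 2 w in both strains (0.31 in DBA/2 mice and −0.45 in B6 mice, adjusted p 0.00946 and 0.00508) and at DBA/2 9 w (0.20, adjusted p 0.0377). A second probe for Pgk1 gave the same directions and was also called at 2 w in both strains, higher in DBA/2 mice (0.28, adjusted p 0.0471) and lower in B6 mice (−0.47, adjusted p 0.0146). The DBA/2 call was lost without any 1 of 14 samples (0.26 to 0.31) and turned to −0.08 relative to Gapdh, and the B6 call was lost without either B6 0 w sample (−0.47 each).

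Eno1 codes for enolase. Its only probe was dim, with a processed signal of 17.5 to 66.1, and none of its changes passed the test. They were 0.27 at both 8 w and 9 w in DBA/2 mice and 0.31 at 8 w in B6 mice (SE 0.22). Samples of DBA/2 mice at all later weeks but 8 w overlapped those at 0 w. The probe lies on chromosome 4 (149087825 to 149088050, mm8).

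Pkm2 (Pkm) codes for pyruvate kinase, the second step that yields ATP, in the isoforms of leukocytes and muscle. In DBA/2 mice its level was 0.01 and −0.13 at 0 w, 0.59 and 0.38 at 2 w, 0.62 and 0.52 at 4 w, 0.47 and 0.53 at 8 w and 0.99 and 0.81 at 9 w. As with Slc2a3, all 8 later samples lay above 0 w, by 0.55, 0.64, 0.56 and 0.96 week by week (SE 0.10, adjusted p 0.00596, 0.00277, 0.00308 and 0.000141). The largest change was 1.95-fold, at 9 w. In B6 mice it was 0.75 and 0.83 at 0 w, −0.27 at 2 w, 1.13 and 1.17 at 4 w, 1.49 and 1.55 at 8 w and 1.27 at 9 w. The 2 w sample was 2.09-fold below 0 w (−1.06, SE 0.12, adjusted p 0.000343), and 4 w (0.36), 8 w (0.73) and 9 w (0.48) were above it (adjusted p 0.0386, 0.000774 and 0.0395). The 4 w and 9 w calls in B6 mice were lost without any 1 of 10 and of 12 samples (0.32 to 0.40 and 0.44 to 0.52), and the 2 w call in DBA/2 mice without replicate 2 of DBA/2 0 w (0.48).

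The probes for Pkm2 did not all behave alike. A second one, just upstream of the first (59476958 to 59477017 and 59477106 to 59477165 on chromosome 9, mm8), was called in the same 8 comparisons and the same directions, and differed between the strains in its change at 4 w (0.45, adjusted p 0.0484), which was lost without any 1 of 16 samples (0.37 to 0.53). The other, dim probe, well above background in 17 of 18 samples and farther upstream (59470599 to 59470658), was called among the weeks at B6 8 w alone (1.19, adjusted p 0.00652) and was 0.19 in the B6 2 w sample (adjusted p 0.793), where the other probes fell by 1.06 and 1.24.

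Ldha codes for the lactate dehydrogenase subunit that favors lactate. Its DBA/2 level was 2.39 and 2.12 at 0 w, 2.53 and 2.21 at 2 w, 2.66 and 2.43 at 4 w, 2.82 and 2.61 at 8 w and 2.53 and 2.46 at 9 w. Replicate 1 was above replicate 2 at every week, and the change at 8 w, 0.46, missed the threshold (SE 0.15, adjusted p 0.0503). It passed without replicate 1 of DBA/2 0 w (0.60) or either DBA/2 2 w sample (0.46 each). With the scan session as a block the changes at 4, 8 and 9 w all passed (0.29, 0.46 and 0.24, SE 0.08, adjusted p 0.0298, 0.00224 and 0.0394), as did the strain difference at 4 w (0.38, SE 0.11, adjusted p 0.0418). In B6 mice the level was 2.37 and 2.25 at 0 w, 2.24 at 2 w, 2.26 and 2.17 at 4 w, 2.95 and 2.74 at 8 w and 2.42 at 9 w, and the 8 w change of 0.54 passed (SE 0.15, adjusted p 0.0305), but not without any 1 of the 0 w or 8 w samples (0.43 to 0.64). A second Ldha probe was called at 4 w (0.43), 8 w (0.68) and 9 w (0.30) in DBA/2 mice and at 8 w in B6 mice (0.70). The 4 w call was lost without any 1 of the DBA/2 0 w or 4 w samples (0.40 to 0.45), and the 9 w call without any 1 of 14 samples (0.24 to 0.36) and with a change of −0.35 relative to Gapdh.

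Of 42 further enzymes, isoforms, transporters and regulators of glycolysis, 34 could be tested. With 4 and 8 w averaged, 8 rose and 3 fell in DBA/2 mice (median 0.05), and in B6 mice 6 rose and 5 fell (median −0.04), against 9.80% higher and 13.1% lower of all probes in DBA/2 mice and 7.28% and 7.72% in B6 mice. By week (2, 4, 8 and 9 w), 9, 6, 11 and 10 rose and 2, 4, 4 and 2 fell in DBA/2 mice, and 2, 5, 9 and 3 rose and 6, 5, 3 and 2 fell in B6 mice. The largest rises in both strains were in Slc16a3, the lactate exporter MCT4 (1.64, SE 0.07, in DBA/2 mice and 0.77 in B6 mice), and in Slc2a6, a hexose transporter (1.52 and 1.02). Slc16a3 was −1.29 and −1.14 at 0 w and 0.66 and 0.67 at 8 w in DBA/2 mice, with no overlap. Pfkfb4, which makes the activator of phosphofructokinase, also rose in both (0.93 and 0.59), and Slc16a1, the lactate carrier MCT1, fell in DBA/2 mice (−1.07, SE 0.07, adjusted p 9.59e-06).

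Of these 34 genes, the strain difference was called higher in DBA/2 mice for 7 and lower for 2 at 4 w, and for 3 and 3 at 8 w. Over all probes 7.38% were called higher and 4.47% lower at 4 w, and 7.19% and 10.3% at 8 w. The 8 w counts are thus near the background. At 4 w it was 1.03 for Slc16a3, 0.88 for Slc2a6 and −1.67 for Slc16a1. At 8 w it was 1.41 for Bpgm, which makes 2,3-bisphosphoglycerate in red cells, −1.24 for Pdk1, which inhibits pyruvate dehydrogenase, and 0.70 for Slc16a3. The summed level of the erythroid markers in B6 mice was 6431 to 6592 at 0 w and 2981 to 3077 at 8 w. In DBA/2 mice it was 3451 to 3633 at 0 w and 3963 to 3979 at 8 w. These B6 samples are also those with the hepatocyte markers, and the part of either marker set in the Bpgm difference was not tested.

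In the B6 2 w sample 2 further glycolysis genes were higher and 6 lower than at 0 w. Of the 15 hepatocyte markers, 14 were also called lower there. The ubiquitous Hk1 (−1.33), Tpi1 (−0.91) and Aldoa (−0.74) were among the genes that fell, beside the 3 members and the 7 platelet markers.

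Of 6 genes of gluconeogenesis 4 were tested. Pck2, the mitochondrial PEPCK, rose in DBA/2 mice (0.48, SE 0.06), and Fbp1 and G6pc fell in B6 mice. Fbp1, a liver enzyme, was at least 47.4-fold lower in the B6 2 w sample than at 0 w. Of 18 tested genes of the HIF pathway outside glycolysis 6 rose and 2 fell in DBA/2 mice (median 0.14), among them Vegfa and the prolyl hydroxylase Egln3, both not well above background at 0 w, while Epas1, which codes for HIF-2α, fell (−1.12, SE 0.16). In B6 mice 3 rose and 2 fell (median 0.07), with Ddit4 (−0.86), an inhibitor of mTORC1, and the prolyl hydroxylase Egln2 (−0.47) lower. Hif1a itself, singled out after its values were seen, was called higher in B6 mice at 8 w (0.67, SE 0.19, adjusted p 0.0359).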

How the data were processed

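Blood leukocyte RNA of DBA/2 and B6 mice was measured on single-color Agilent mouse arrays (19 arrays, 18 RNA samples, 1 of which was hybridized on 2 arrays and averaged). The authors deposited the scanner output of Agilent Feature Extraction 9.5.3.1, in which the processed signal is a background-corrected intensity per spot, and a value table of the same processed intensities on a linear scale, with 1 value per probe and, as those values show, no scaling between arrays. Here the log2 of the processed signal was taken, outlier spots were left out, spots of a probe were averaged, and the 75th percentile over 11536 probes well above background on all arrays was subtracted. The depth of an array is set by its spots, 33.9 to 51.4% of which were well above background, and the number of arrays limits the precision. Probes well above background in at least 2 samples (22939) were fitted in limma 3.58.1 (R 4.3.3) with 1 mean per group, 8 residual degrees of freedom and Benjamini-Hochberg adjustment at 0.05. Tables were made with Python 3.11.15, numpy 2.4.6 and pandas 2.3.3, and plots with matplotlib 3.10.9.

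The members and gene lists were chosen with earlier results of these data known. Each member was described by its probe with the highest mean level, and by its others where they differed. Of the other lists, up to 4 genes with the largest called changes were named per comparison, and for Gapdh the 5 most correlated genes. Alternatives were another scaling, background correction, filter, floor, probe summary, array, block, the value table, and leaving out each sample. In data simulated for the DBA/2 mean of 4 w and 8 w (200 of 22939 probes changed), 63.0% of changed probes were recovered, 73.5% of those changed 4-fold and 52.9% of those changed 2-fold, with 5 false calls, and for the strain difference of these means 50.5% were recovered, 61.2% and 40.2% by size, also with 5 false calls. Slc2a3 was left out of the promoter search, for which RefSeq had no entry here, and 1 gene of the pathway lists is not reported here by name.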

Additional observations from a re-analysis of the deposited data

Results flagged for a closer look

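The change from 0 w differed between DBA/2 and B6 mice (limma, adjusted p under 0.05, a positive value being a greater change in DBA/2 mice) for the following genes of the pathway lists. At 4 w the difference was 1.07 for Hk2 (adjusted p 0.0213) and 0.45 for a second Pkm2 probe (adjusted p 0.0484). For lactate and sugar transport it was 1.03 for Slc16a3 (adjusted p 0.000341), −1.67 for Slc16a1 (adjusted p 3.05e-05) and 0.88 for Slc2a6 (adjusted p 0.00289). It was −0.41 for Pck2 (adjusted p 0.0227), 1.09 for the mitophagy receptor Bnip3 (adjusted p 0.0262) and −0.80 for Ddit4 (adjusted p 0.0022). For Fbp1 (adjusted p 1.01e-05), Epas1 (adjusted p 0.000125) and Vegfa (adjusted p 0.0103) no difference is given, since at least 1 group was not well above background.

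At 8 w the difference was 1.41 for Bpgm (adjusted p 0.000166), −1.24 for Pdk1 (adjusted p 0.00023), 0.70 for Slc16a3 (adjusted p 0.00267) and 0.55 for the phosphofructokinase Pfkp (adjusted p 0.0413). It was 1.16 for Pck2 (adjusted p 0.000117), 1.41 for Ddit4 (adjusted p 0.000123), 1.12 for Bnip3l (adjusted p 0.014) and 0.87 for the collagen prolyl hydroxylase P4ha1 (adjusted p 0.0318), and for Epas1 the adjusted p was 0.0089 with a group not well above background. Pck2 and Ddit4 had differences of opposite sign at 4 w and 8 w. Every one of these differences uses the B6 0 w samples, in which the summed level of the hepatocyte markers was 55.0 to 56.3, and those at 8 w also use the B6 8 w samples, in which it was 36.0 to 37.2. The part of these markers in the differences was not tested. No group had enough samples to look for an outlying one.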

How the results depend on the processing

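Groups of 2 samples or 1, weak signal of Pfkl and Eno1, and the background correction limit these results. Over the results and alternatives computed, 4399 values kept direction and side of the threshold, 261 lost the call, 105 gained one and 31 reversed. Where a count moved by over 1.5 times, the cause was not tested. The counts below are of the 10 genes called unless probes are named.

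With the 75th percentile over all probes, or the median of each array, B6 9 w had 1 gene (2 before). With the first array of B6 0 w replicate 2 alone, B6 4 w and 9 w had 1 each, and with the mean of detected probes B6 4 w had 1. After quantile normalization B6 4 w and 9 w and the strain level at 0 w had 1 each, and the level difference of Gapdh at 4 w was 0.086.

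Relative to Gapdh the counts were 1, 2, 2 and 2 in DBA/2 mice (2, 4, 8 and 9 w), and 2 over the mean of 4 w and 8 w (13211 probes). They were 0, 1 and 1 at B6 4 w, 8 w and 9 w, 1 over the B6 mean (10642 probes), and 0 for the strain difference at 4 w. Reversed there were, at B6 8 w, Ldha −0.18, Pfkl −0.46 and Pgk1 −0.14, at DBA/2 2 w the second Pgk1 probe −0.082, at 4 w Pfkl −0.37 and Pgk1 −0.022, at 8 w Pfkl −0.57, Pkm2 −0.092 and Slc2a3 −0.076, and at 9 w the second Ldha probe −0.35, Pgk1 −0.45 and Slc2a1 −0.16. Reversed strain levels were Pfkl 0.40, Pgk1 0.12 and Slc2a3 0.13 at 0 w and Pgk1 0.43 and Slc2a3 0.049 at 8 w.

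Without a filter on dim probes, the counts were 1 and 3 at DBA/2 2 w and 4 w, 0 and 0 at B6 4 w and 9 w, 3 over the B6 mean, 2 for the level at 0 w and 0 for the strain difference at 4 w. The probes called over the mean were 3056 in DBA/2 mice, 1631 in B6 mice and 1260 for the strain difference (5246, 3443 and 3029 before). With normexp, the counts were 0, 0, 1 and 3 in DBA/2 mice (2, 4, 8 and 9 w), 2 over the mean (586 probes), 0, 3 and 0 at B6 4 w, 8 w and 9 w, 0 over the mean (179 probes), 1, 0 and 1 for the level at 0 w, 4 w and 8 w, and 0 for the strain difference at 4 w (90 probes over the mean).

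In the value table without scaling, B6 4 w had 0, B6 9 w 6 and the B6 mean 8 (9374 probes), the level at 0 w and 4 w 8 and 9, and the strain difference 9 at 8 w and 5 over the mean (9196 probes). Reversed there were the second Ldha probe at DBA/2 9 w (−0.13), the levels at 0 w of Eno1 (0.76), Gapdh (0.37), Ldha (0.76), Pfkl (0.77), Pgk1 (0.49) and Slc2a3 (0.49), those at 4 w of Gapdh (0.58), Pgk1 (0.73), Pkm2 (0.23) and Slc2a3 (0.67), and the strain differences at 8 w of Hk2 (−0.90) and Pgk1 (−0.97).

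Replicate number matched scan session. Same-numbered deviations correlated at 0.75 to 0.83 in 6 pairs among DBA/2 0 w to 8 w, 0.39 to 0.46 in 3 pairs within B6 mice, 0.016 to 0.20 in 4 pairs of DBA/2 9 w with other weeks, and −0.025 to 0.45 in 15 pairs between strains, so that the numbers paired samples within the strains more than between them, and the fits without the block were kept as the main ones. With the replicate block the counts became 4 at B6 9 w, 2 for the strain difference at 4 w (Hk2 and Ldha) and 1 over the mean (Hk2), and no other count moved by over 1.5 times. With the slide as a block they became 5 at B6 9 w, 8 over the B6 mean, 5 and 8 at DBA/2 2 w and 4 w, and 3, 1 and 3 for the strain difference at 4 w, 8 w and over the mean. The slide block could not be fitted for DBA/2 9 w and for the strain levels, since these comparisons coincide with slides. The DBA/2 arrays of 0 to 8 w were on slides 2 and 5, and those of 9 w on slides 3 and 6. The B6 arrays were on slides 1, 3, 4 and 6. A slide difference cannot be told apart from a difference of DBA/2 9 w from 0 w or of level between the strains.

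Leaving out each sample gave 2 to 4, 4 to 6, 6 to 7 and 4 to 6 genes in DBA/2 mice (2, 4, 8 and 9 w), and 6 to 7 over the mean (3069 to 5592 probes). It gave 2 to 3, 0 to 2, 6 to 8 and 0 to 3 in B6 mice (2, 4, 8 and 9 w), and 3 to 6 over the mean (1708 to 3745 probes). For the level at 0 w, 4 w and 8 w it gave 2 to 5, 3 to 5 and 3 to 4, and for the strain difference 0 to 2 at 4 w, 0 to 0 at 8 w and 0 to 1 over the mean (1804 to 3230 probes). Without all B6 0 w and 8 w samples, an alternative chosen after seeing the data, 25 of 28 calls on single probes that do not need them held and 3 were lost, the second Pgk1 probe at DBA/2 2 w (0.28), Pgk1 at DBA/2 4 w (0.39) and the strain level of Gapdh at 4 w (−0.22).

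Over scalings the share of calls in the higher direction moved from 50.3%, 51.1%, 41.8% and 48.3% in DBA/2 mice (2, 4, 8 and 9 w) to 6.96%, 7.89%, 5.09% and 5.97% relative to Gapdh and to 86.4%, 88.8%, 76.1% and 85.8% with normexp. In B6 mice it moved from 40.6%, 38.4%, 51.7% and 58.7% to 87.6%, 12.9%, 3.84% and 6.94% relative to Gapdh and to 18.3%, 46.6%, 99.5% and 93.9% in the value table.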
